A study of Mus musculus with 6 samples.

Results

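The enzymes of glycolysis and of glycogen storage were followed in C2C12 myotubes, muscle fibres formed in culture from a mouse myoblast line. The 35 genes were listed by name, 23 of glycolysis and 12 of glycogen metabolism, and all 35 were found among the 46983 genes of the deposited count table. Of these, 33 passed the filter on low counts, as did 14450 genes in all. Fbp2 and Pygl did not. Myotubes of this wild-type cell line were formed over 7 days in 2% horse serum and medium with 4.5 g/L glucose, then held for 24 h with corticosterone at 1e-07 M or with ethanol at 1 µL/mL as vehicle. There were 3 libraries of poly(A) RNA per treatment, described as independent biological replicates, so the 6 libraries speak for a single line. The comparison asked which genes differ between hormone and vehicle.

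Glycolysis breaks glucose down to pyruvate and lactate in the cytosol and is the fast source of ATP in contracting muscle. Hexokinase, phosphofructokinase and pyruvate kinase catalyse its largely irreversible steps. Glycogen, the stored polymer of glucose, is begun by glycogenin, extended by glycogen synthase, branched by the branching enzyme and broken down by glycogen phosphorylase, which phosphorylase kinase activates. Skeletal muscle uses isoforms of its own for several of these steps, and glucocorticoids are known to alter glucose use and glycogen in muscle.

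Total counts lay between 23877583 and 29928653, and 3 counts, the floor used here, came to 0.103 to 0.125 CPM (counts scaled by library total and TMM factors). Genes that glucocorticoids induce did not follow the labels. Fkbp5, which encodes an immunophilin of the receptor complex, stood at 135 to 177 CPM in corticosterone 1, corticosterone 3 and vehicle 2, and at 35.4 to 36.9 CPM in the other libraries. Tsc22d3 and Per1 split the libraries in the same way. Directions by treatment are therefore directions by label. Over all genes tested, each library had a nearest neighbour, which paired corticosterone 1 with vehicle 3, corticosterone 2 with corticosterone 3, and vehicle 1 with vehicle 2. Myotube markers were abundant (Myog at 631 to 864 CPM, Acta1 at 3542 to 4811 CPM), and of 5 fat cell markers Adipoq, Cfd and Lep were at 0 counts in every library. The other fat cell markers were near the floor, Plin1 at 0 or 1 count and Fabp4 at 15, 3 and 28 counts in corticosterone 1, 2 and 3 and 0, 29 and 1 in vehicle 1, 2 and 3.

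By label, none of the 33 members passed the test (edgeR quasi-likelihood, adjusted p under 0.05 over all genes), where 0% of all genes passed. At an unadjusted p under 0.05 there were 3 members, all higher with corticosterone (Hk1, Eno1 and Ugp2), beside 5.55% of all genes in that direction and 11.8% in either. No member was lower at that level, beside 6.26% of all genes. DESeq2 and limma-voom called 0 members, and over all genes they called 0.955% and 0%. The log2 difference, corticosterone minus vehicle, was positive for 14 of 22 glycolysis genes (median 0.08) and 9 of 11 glycogen genes (median 0.13). Over all genes it was positive for 50.8%, with a median of 0.004. The medians of the members stayed positive but moved with single libraries. The glycolysis median was 0.052, 0.045 and 0.043 without corticosterone 1, vehicle 1 or vehicle 2, and 0.158 and 0.147 without corticosterone 2 or vehicle 3. The glycogen median was 0.066 and 0.082 without corticosterone 1 or vehicle 2. Scaled by library totals only, the medians were 0.032 and 0.080. The label groups were fully separate in CPM for 5 members, all higher with corticosterone: Hk1, Eno1, Ugp2, Pfkfb4 and Phka1. That is 15.2% of the members, where 8.41% of all genes were higher without overlap. For Phka1 the margin was narrow, 36.6 CPM in corticosterone 3 against 36.3 CPM in vehicle 3. Scaled by library totals only, vehicle 3 lay above corticosterone 3 for this gene, so its labels overlapped. No tested member was lower without overlap, where 8.19% of all genes were (16.6% in either direction). With both libraries numbered 2 left out, whose Fkbp5 levels went against their labels, 0 members and 0.0208% of all genes passed, and the medians were 0.11 and 0.13. Without corticosterone 1, 0 members and 0.199% of all genes passed, and without vehicle 3, 0 members and 0.0744%. With corticosterone 1 and vehicle 3 both left out, Hk1 passed (log2 difference 0.43, edgeR adjusted p = 0.0463), beside 3.96% of all genes and 1.69% in that direction. That setting leaves corticosterone 2 and 3 against vehicle 1 and 2. These are near pairs, and whatever else the libraries of a pair share cannot be told apart from treatment. It also keeps both libraries whose Fkbp5 went against their labels, corticosterone 2 (36.9 CPM) and vehicle 2 (177 CPM). In RNA from whole cultures, fewer cells of a type and less RNA per cell cannot be told apart.

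**Figure D1:**
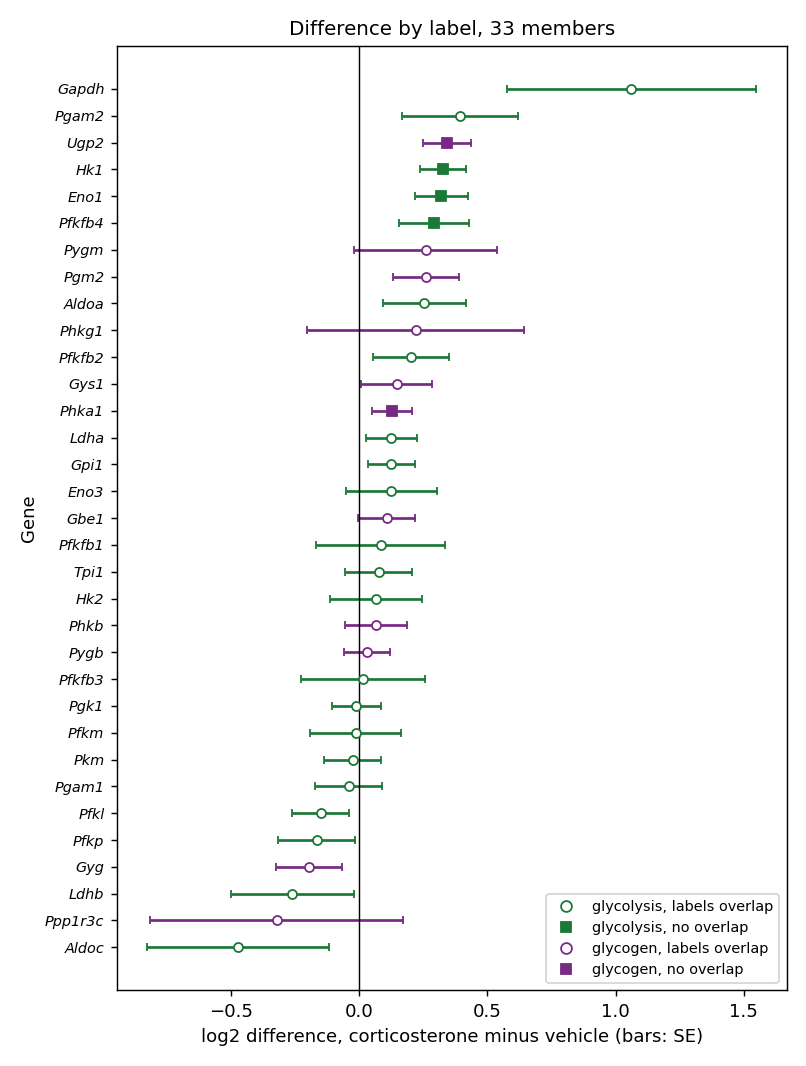
Log2 difference between labels for the 33 members, with the standard error as bars. Filled squares mark the 5 members without overlap between labels, all to the right of 0, and open circles the members whose labels overlap.

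The first steps trap glucose and commit it to glycolysis. Hexokinase 1, the widely expressed isoform (Hk1, ENSMUSG00000037012), lies on GRCm38 chromosome 10 from 62268855 to 62379908. It stood at 197, 206 and 204 CPM in corticosterone 1, 2 and 3. In vehicle 1, 2 and 3 it stood at 150.0, 153 and 180.5 CPM. The corticosterone libraries lay close together and above every vehicle library, and the log2 difference was 0.33 ± 0.09 (SE, edgeR adjusted p = 0.364). Hexokinase 2, the main isoform of insulin-responsive muscle (Hk2), gave 124, 73.6 and 88.5 CPM against 88.7, 86.0 and 98.7 CPM. Corticosterone held both its highest and its lowest value, and the difference was 0.07 ± 0.18. Gpi1, the hexose phosphate isomerase, ranged over 1.21-fold between libraries, from 213 to 259 CPM.

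Phosphofructokinase is the committed step. Its muscle isoform Pfkm (chromosome 15, 98092589 to 98132451) reached 770.0, 517 and 561 CPM in the corticosterone libraries and 539, 597 and 731 CPM in the vehicle libraries. The high values were corticosterone 1 and vehicle 3, and the labels differed by -0.01 ± 0.18. The liver isoform Pfkl was highest in vehicle 1, at 92.8 CPM, and lay between 67.0 and 80.2 CPM elsewhere. The platelet isoform Pfkp ran from 57.0 CPM in corticosterone 3 to 90.3 CPM in vehicle 3.

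The bifunctional Pfkfb enzymes make and remove the sugar bisphosphate that activates phosphofructokinase. Pfkfb4 was the only member of this family without overlap, at 12.2, 11.3 and 11.3 CPM against 10.2, 7.96 and 10.4 CPM. Its difference was 0.29 ± 0.14 (adjusted p = 0.442), and vehicle 2 was the low library. Pfkfb3, the form best known from proliferating and stimulated cells, gave 5.97, 6.47 and 8.05 CPM against 8.87, 6.62 and 4.76 CPM, with both extremes among the vehicle libraries. Pfkfb2 lay between 7.11 and 9.52 CPM and Pfkfb1 between 0.896 and 1.16 CPM, so the latter rested on few reads. Fbp2, the muscle fructose bisphosphatase that runs this step backwards, had counts of 1, 1 and 0 against 5, 4 and 1. Only vehicle 1 and 2 exceeded 3 counts, and no fold is given.

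The middle of the pathway splits the hexose and yields ATP. Aldoa, the muscle aldolase, gave 1419, 1016 and 1289.8 CPM against 931, 953 and 1239 CPM, with the labels overlapping (log2 difference 0.25 ± 0.16). Aldoc, the brain form, rested on few reads, at 0.908, 1.37 and 1.26 CPM against 1.92, 0.931 and 2.09 CPM, and vehicle 2 lay among the corticosterone libraries. Tpi1, the triose phosphate isomerase, was highest in corticosterone 1 (572 CPM) and lowest in corticosterone 2 (406 CPM). Pgk1, the phosphoglycerate kinase, was among the steadiest members, with 509, 444 and 535 CPM against 529.9, 475 and 494 CPM (difference -0.01 ± 0.10). Of the 100-base words in the annotated transcripts of Pgk1, 51.7% also occur in transcripts of other genes. Those genes together had 3.56 to 5.15 CPM. The row of Pgk1 therefore carries the uncertainty of counting described below for Gapdh.

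Gapdh, the triose phosphate dehydrogenase often used as a reference gene (ENSMUSG00000057666, chromosome 6, 125161715 to 125166467), had far fewer reads than its neighbours in the pathway. It stood at 26.8, 9.25 and 8.88 CPM against 5.59, 5.24 and 10.8 CPM, the widest range of the tested members (5.11-fold). Corticosterone 1 was far above the rest, and the log2 difference of 1.06 ± 0.49 (adjusted p = 0.437) became 0.34 without that library. Of the 100-base words in the annotated transcripts of Gapdh, 20.9% also occur in transcripts of other genes, 86 genes in all. The processed pseudogene Gm13394, which shares 801 of these words, carried 529, 467 and 521 CPM against 461, 448 and 520.0 CPM. Summed with all genes that share such words, Gapdh came to 593, 507 and 568 CPM against 499.7, 487 and 569.8 CPM, a range of 1.22-fold. The sum was largest in corticosterone 1, vehicle 3 and corticosterone 3, and the labels overlapped. How the counting dealt with reads that match several places is not given in the sources used here, so the row of Gapdh alone is an uncertain measure of its RNA.

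**Figure D2:**
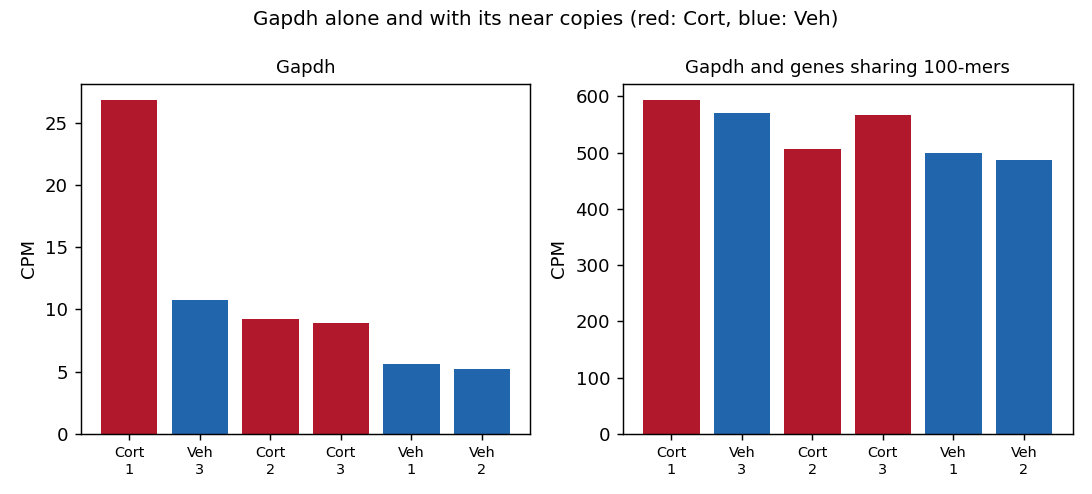
CPM of Gapdh alone (left) and summed with the genes that share 100-base words with it (right), by library, with near pairs side by side. Alone, corticosterone 1 reaches 26.8 CPM against 5.24 to 10.8 CPM elsewhere, whereas the sums run from 487 to 593 CPM.

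The last steps form pyruvate and lactate. Phosphoglycerate mutase has a general isoform, Pgam1, and a muscle isoform, Pgam2. Pgam1 gave 155, 160.4 and 192 CPM against 196, 180.0 and 146 CPM, and its lowest values were those of vehicle 3 and corticosterone 1. Pgam2 gave 113, 59.0 and 92.7 CPM against 59.6, 62.4 and 79.4 CPM, with corticosterone 1 highest and corticosterone 2 beside the low vehicle libraries (difference 0.39 ± 0.23, adjusted p = 0.518). The difference was 0.18 without corticosterone 1 and 0.61 without corticosterone 2.

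Eno1, the general enolase (ENSMUSG00000063524, chromosome 4, 150236721 to 150248879), reached 631, 633 and 739.8 CPM against 511, 509 and 586 CPM. Every corticosterone library was above every vehicle library, by a log2 difference of 0.32 ± 0.10 (adjusted p = 0.364). The retrocopy Eno1b shares 20.3% of the words of Eno1, and the sum of Eno1 and Eno1b was 834, 830.2 and 966 CPM against 681, 678 and 770.4 CPM, also without overlap. Eno3, the muscle enolase and the most abundant member per kilobase of exon (671 CPM per kb on average), followed another order, at 1440.4, 1030.3 and 1181 CPM against 949.8, 1020.0 and 1381 CPM. Corticosterone 1 and vehicle 3 were the high libraries, and the labels differed by 0.12 ± 0.18.

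Pkm, pyruvate kinase, varied by 1.22-fold in all, with 1609.8, 1316 and 1458 CPM against 1494, 1371 and 1598 CPM. Ldha, the lactate dehydrogenase subunit that predominates in fast muscle, gave 644, 593 and 703 CPM against 584, 555 and 640.4 CPM, which overlapped. Ldhb, the heart-type subunit, was scarce, at 15.8, 7.98 and 9.86 CPM against 13.8, 12.3 and 14.2 CPM. Corticosterone 2 and 3 held its lowest values, below every other library.

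Glycogen synthesis starts from glucose phosphate made by phosphoglucomutase and charged by Ugp2, the UDP-glucose pyrophosphorylase. Ugp2 (ENSMUSG00000001891, chromosome 11, 21321138 to 21371201) had the smallest unadjusted p of the glycogen genes, with 171, 174 and 201 CPM against 135, 139.6 and 156 CPM. No vehicle library reached the lowest corticosterone library, and the log2 difference was 0.34 ± 0.09 (adjusted p = 0.364, and 0.109 by DESeq2). Pgm2, described in the deposited table as phosphoglucomutase 1 (chromosome 4, 99929414 to 99987294), measured 109.9, 78.3 and 107 CPM against 80.4, 84.3 and 82.1 CPM. Corticosterone 1 and 3 stood apart, and corticosterone 2 was the lowest of all 6.

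Gyg, glycogenin, gave 111, 77.4 and 86.5 CPM against 104, 108 and 103 CPM, with corticosterone 2 and 3 lowest. Gys1, the muscle glycogen synthase, gave 219, 185 and 189 CPM against 157, 163 and 217 CPM, so that vehicle 3 lay beside corticosterone 1. The branching enzyme gene Gbe1 stayed between 18.7 and 24.2 CPM. Ppp1r3c, which targets protein phosphatase to glycogen, was low and variable, at 1.78, 2.40 and 3.14 CPM against 4.42, 3.69 and 1.00 CPM. Its lowest values were vehicle 3 and corticosterone 1, the reverse of Gys1.

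Breakdown rests on phosphorylase and its kinase. Pygm, the muscle phosphorylase whose loss causes McArdle disease (ENSMUSG00000032648, chromosome 19, 6384399 to 6398459), measured 296, 164 and 187 CPM against 143, 149 and 248 CPM. Corticosterone 1 and vehicle 3 were again the high libraries, and the labels differed by 0.26 ± 0.28. The brain isoform Pygb was the steadiest member, at 42.4 to 49.6 CPM (1.17-fold), and was lowest in the same pair of libraries. The liver isoform Pygl had 0 to 3 counts in each library. Of the phosphorylase kinase subunits, the regulatory Phka1 was higher without overlap, at 40.2, 37.2 and 36.6 CPM against 33.5, 34.5 and 36.3 CPM (difference 0.13 ± 0.08, adjusted p = 0.534). Phkb lay between 190.2 and 246 CPM. The catalytic Phkg1 was near the floor, at 0.345 to 1.04 CPM, and 9.68% of its exon length overlaps Sumf2 on the opposite strand, whose reads cannot be told apart from its own where strand is not recorded.

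**Figure D3:**
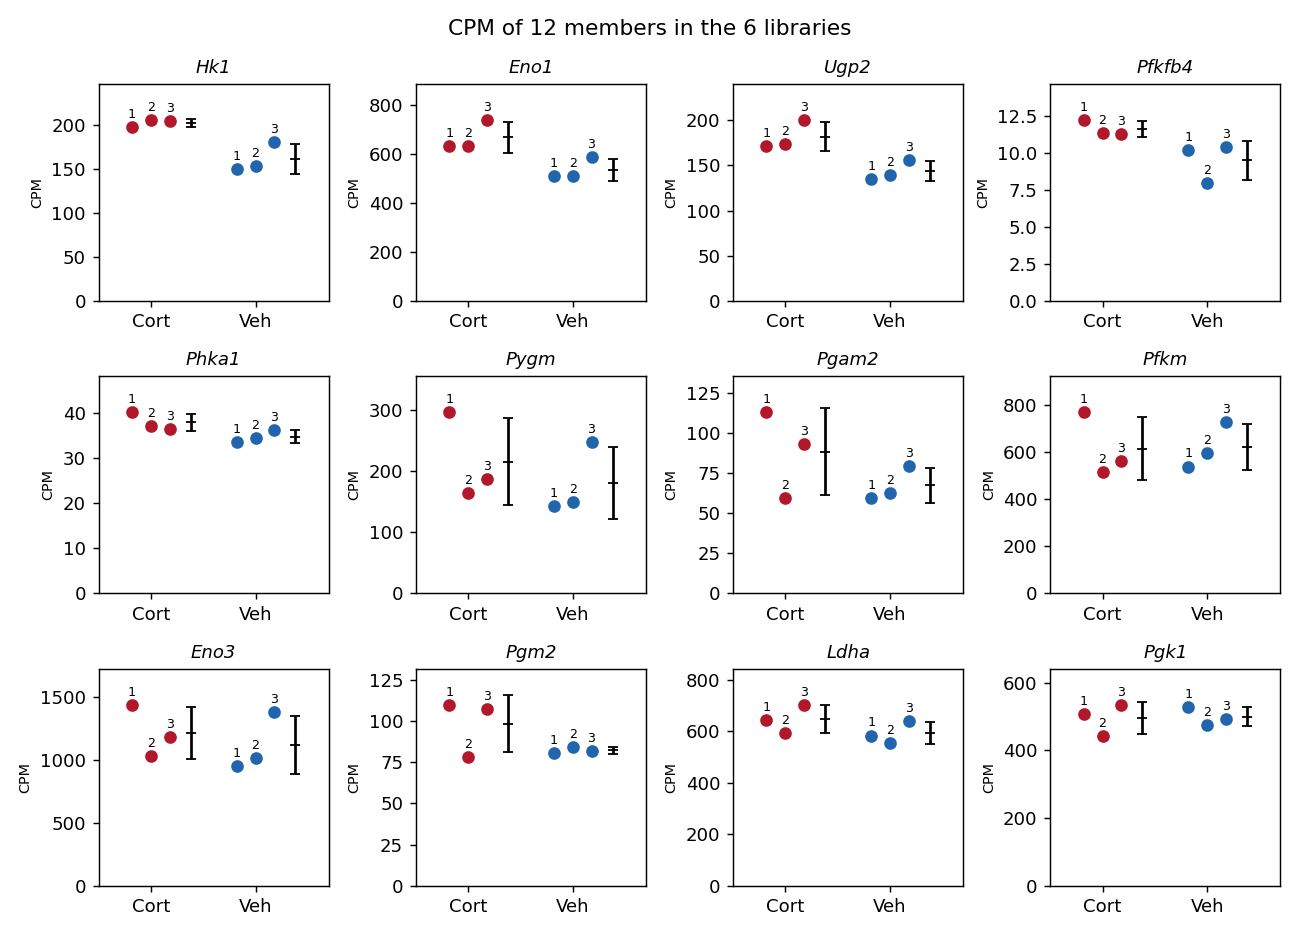
CPM of 12 members by label, with each library numbered and the mean and SD of 3 libraries as a bar to the right of the points. Hk1, Eno1, Ugp2, Pfkfb4 and Phka1 separate by label, whereas Pygm, Pfkm and Eno3 are highest in corticosterone 1 and vehicle 3.

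The near pairs were set by all genes tested. Over the 33 members alone, the library nearest to vehicle 3 was corticosterone 2 (root mean square log2 distance 0.375), with corticosterone 1 next (0.396), and the other pairs were the same. Corticosterone 1 was the highest library for 18 of 33 members (54.5%), where it was highest for 13.9% of all genes. Vehicle 2 was highest for 0 members, where it was highest for 15.1% of all genes. Corticosterone 1 and vehicle 3 were together above the other 4 libraries for 11 members (33.3%), where this held for 10.3% of all genes. These were Hk2, Gpi1, Pfkm, Pfkp, Gapdh, Eno3, Pkm, Ldhb, Gys1, Pygm and Phkb. The same pair was lowest for 4 members, Pfkfb3, Pgam1, Pygb and Ppp1r3c (12.1%, beside 12% of all genes). Vehicle 1 and vehicle 2 were together lowest for 14 members (42.4%), where this held for 18.4% of all genes, and together highest for Ppp1r3c alone (3.03%, beside 16.8%). Corticosterone 2 and 3 were together highest for Hk1, Eno1 and Ugp2 (9.09%, beside 13.3%) and lowest for Ldhb and Gyg (6.06%, beside 13.4%). These orders are descriptions of 6 libraries and were not tested.

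The summed level of all 35 members was also highest in corticosterone 1 and vehicle 3, at 9932, 7869 and 9078 CPM in corticosterone 1, 2 and 3 and 7849, 7789 and 9264 CPM in vehicle 1, 2 and 3. Myotube markers moved with it. The 10 listed markers found under their symbols summed to 17168, 14989.5 and 16634 CPM against 12600.1, 13542 and 16660.2 CPM. Myh8, the perinatal myosin heavy chain, was at 414 CPM in corticosterone 1 and 288 CPM in vehicle 3, and at 62.2 to 123 CPM elsewhere. Of the 10 markers, 3 (Myh8, Tnnt1 and Des) were highest in that pair of libraries, and others were not: Myh3 was highest in corticosterone 2 (1901 CPM) and Mylpf in vehicle 1 (2835 CPM). The 6 myoblast and satellite cell markers also summed highest in corticosterone 1 and vehicle 3, though narrowly. Their sums were 1138.1, 1056 and 1027 CPM against 1072, 1129.8 and 1138.4 CPM. Myod1, Pax7 and Cdh15 were highest in that pair, Vcam1 was lowest in it, and Myf5 and Sdc4 were neither. Proliferation markers summed to 263, 251 and 268 CPM against 355, 329.6 and 293 CPM. These sums separated by label, every vehicle library above every corticosterone library, with vehicle 1 and vehicle 2 highest. Top2a, Ccna2 and Ccnb1 were lower with corticosterone without overlap (edgeR adjusted p = 0.364, 0.364 and 0.386). DESeq2 gave them adjusted p = 0.0398, 0.0137 and 0.292. Mki67, Cdk1, Mcm2, Mcm5 and Pcna overlapped between labels. Fibroblast markers, of which Col3a1 made up most and Tcf21 was at 0, summed to 2273 and 2351 CPM in corticosterone 1 and vehicle 3 and to 2938 to 4868 CPM in the other libraries. The part of any of these cell states in the order of the members was not tested.

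**Figure D4:**
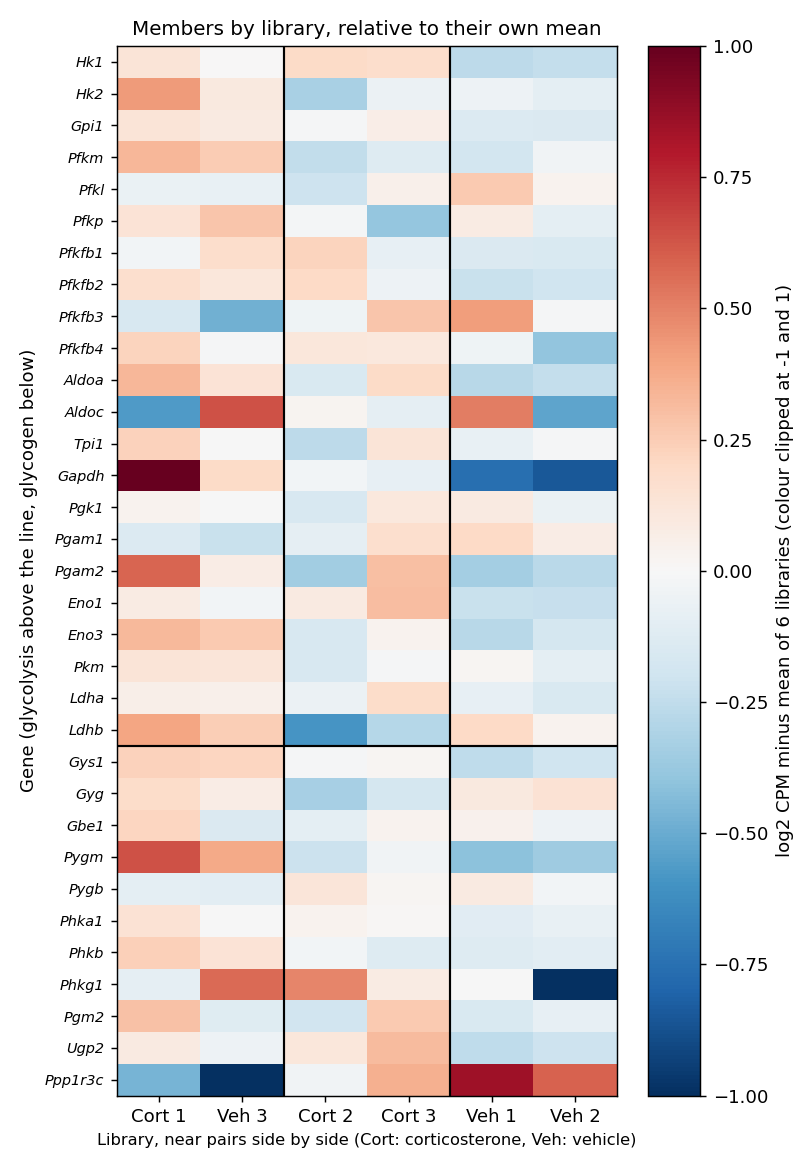
Each tested member in each library as log2 CPM minus its own mean over 6 libraries, with near pairs side by side and colours clipped at -1 and 1. Red prevails in the column of corticosterone 1, the highest library for 18 of 33 members, and blue in those of vehicle 1 and vehicle 2.

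The members were also read in the order of Fkbp5. Pgm2 was the only member whose levels in corticosterone 1, corticosterone 3 and vehicle 2 all lay above the other libraries (3.03%, where 4.89% of all genes did so). The margin was narrow, 84.3 CPM in vehicle 2 against 82.1 CPM in vehicle 3. Aldoc was the only member with these 3 libraries all below (3.03%, where 4.74% of all genes were), from few reads. Within each near pair, the library with the higher Fkbp5 level had the higher CPM for 10 members, namely Pfkm, Aldoa, Tpi1, Pgam2, Eno3, Gys1, Gyg, Pygm, Pgm2 and Ugp2 (30.3%, beside 20% of all genes). It had the lower CPM for Pfkp, Pfkfb1, Aldoc and Phkg1 (12.1%, beside 20.5%). For Pgam2 the ratios were 1.42 (corticosterone 1 over vehicle 3), 1.57 (corticosterone 3 over corticosterone 2) and 1.05 (vehicle 2 over vehicle 1), and for Pgm2 1.34, 1.37 and 1.05. For Gys1 they were 1.01, 1.02 and 1.04. This reading takes its order from genes measured in the same libraries, so it is a description and not a comparison of treatments.

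Scaled by exon length, the muscle isoform made up most of the message in several enzyme families. Each family here held listed members only. Pfkm was 89.1 to 93.1% of the phosphofructokinase level, Eno3 83.2 to 87.9% of enolase, Pygm 81.5 to 91.2% of glycogen phosphorylase and Aldoa 99.8 to 99.9% of aldolase. Enolase was thus Eno1 and Eno3, without Eno1b (169 to 226 CPM) and Eno2 (22.9 to 29.2 CPM). With these included, the shares of Eno3 would be lower. Per kilobase Pgam2 and Pgam1 were of like level, and the share of Pgam2 had the widest range of the 7, with 63.1, 46.5 and 53.3% against 41.8, 45.0 and 56.1%. It was highest in corticosterone 1 and vehicle 3, as was the share of Pygm (91.2 and 89.7%). Hk2 was 47.3, 33.9 and 38.3% of hexokinase against 45.8, 44.5 and 43.9%, and Ldhb 4.90, 2.76 and 2.87% of lactate dehydrogenase against 4.75, 4.47 and 4.46%. Both shares were lowest in corticosterone 2 and 3, while corticosterone 1 lay at or above the vehicle libraries. Exon length here is that of all annotated exons of a gene merged, not of the transcript expressed (5379 bases for Eno1 and 1739 for Eno3). Without length scaling Pgam2 was 23.3 to 42.0% of its family and Eno3 61.5 to 70.2%. The unscaled shares of Pfkm, Pygm and Hk2 were 75.9 to 83.2%, 74.7 to 87.4% and 26.4 to 38.6%. Of the 100-base words of Pgam1 33.9% also occur in other genes, and of those of Eno1 20.4%, so these shares carry the same uncertainty of counting as Gapdh. All 7 shares overlapped between labels (exact two-sided permutation tests, p from 0.2 to 0.6, adjusted p from 0.56 to 0.6, n = 3 each). With 3 against 3 libraries such a test cannot give a p under 0.1. It could not reach the threshold of 0.05, so a difference in share is not excluded.

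**Figure D5:**
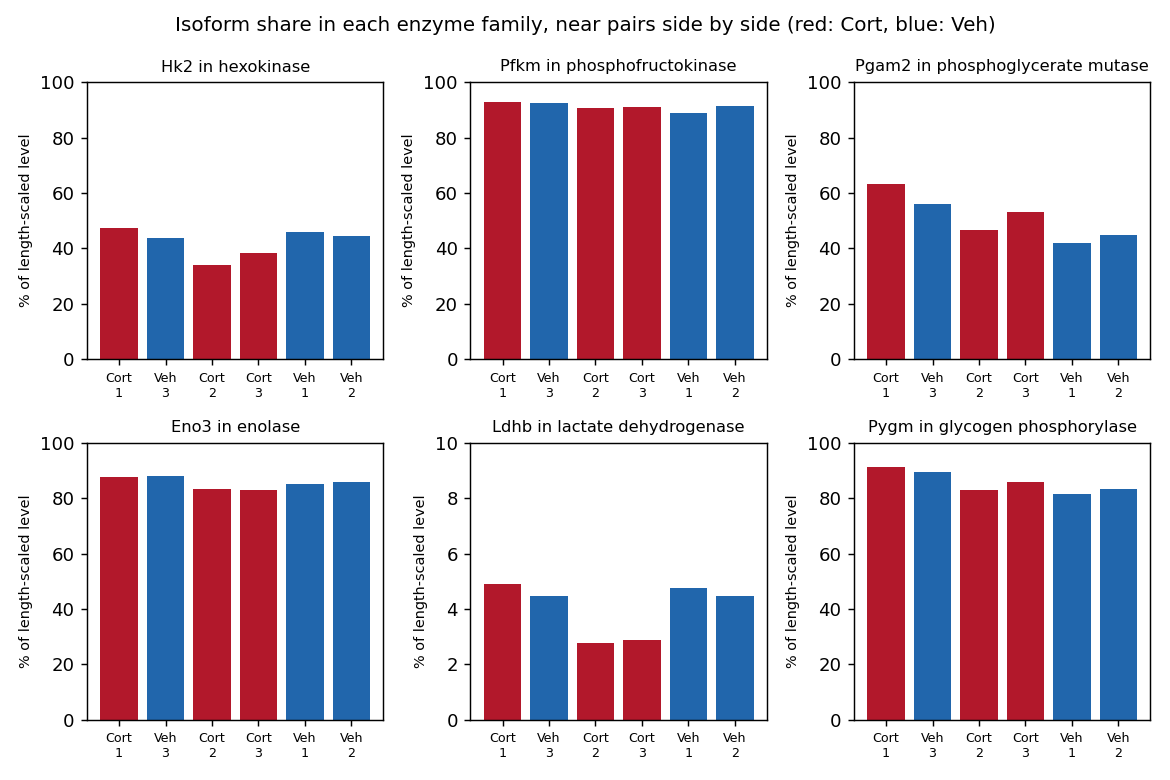
Share of the named isoform in the length-scaled level of its enzyme family, in percent, as 1 bar per library with near pairs side by side. The axis of Ldhb ends at 10% and the others at 100%. Pgam2 is highest in corticosterone 1 and vehicle 3, and Hk2 and Ldhb are lowest in corticosterone 2 and 3.

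Promoter sequence is shown for a pair of members that held nearly level, Ldha and Pgk1 (1.27-fold and 1.21-fold between the highest and the lowest library), and a pair that varied more between libraries, Pygm and Pgam2 (2.07-fold and 1.91-fold). The sequences are RefSeq windows on GRCm38.p6, the 250 bases before the annotated start, read 5′ to 3′ on the strand of the gene. Capitals mark ACGTG, the core bound by hypoxia-inducible factors and by several basic helix-loop-helix proteins, in Ldha and Pgk1, on either strand. In Pygm and Pgam2 they mark CAGCTG, an E-box that myogenic factors can bind.
Ldha (chr7:46845554-46845803, plus strand): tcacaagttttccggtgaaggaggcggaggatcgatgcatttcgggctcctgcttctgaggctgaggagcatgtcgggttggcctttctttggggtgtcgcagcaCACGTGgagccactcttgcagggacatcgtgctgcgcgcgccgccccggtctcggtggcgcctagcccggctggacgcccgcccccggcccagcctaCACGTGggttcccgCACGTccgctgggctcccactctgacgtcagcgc
Pgk1 (chrX:106186850-106187099, plus strand): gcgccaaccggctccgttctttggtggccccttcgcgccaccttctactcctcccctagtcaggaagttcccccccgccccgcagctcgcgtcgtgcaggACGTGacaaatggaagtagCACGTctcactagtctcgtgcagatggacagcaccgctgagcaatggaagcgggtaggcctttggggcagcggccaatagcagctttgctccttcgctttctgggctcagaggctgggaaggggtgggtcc
Pygm (chr19:6384158-6384407, plus strand): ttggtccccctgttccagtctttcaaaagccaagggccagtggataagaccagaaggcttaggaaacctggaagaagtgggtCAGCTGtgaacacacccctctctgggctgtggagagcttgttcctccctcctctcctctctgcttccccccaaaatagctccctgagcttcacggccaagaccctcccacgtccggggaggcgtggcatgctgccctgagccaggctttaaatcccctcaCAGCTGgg
Pgam2 (chr11:5803797-5804046, minus strand): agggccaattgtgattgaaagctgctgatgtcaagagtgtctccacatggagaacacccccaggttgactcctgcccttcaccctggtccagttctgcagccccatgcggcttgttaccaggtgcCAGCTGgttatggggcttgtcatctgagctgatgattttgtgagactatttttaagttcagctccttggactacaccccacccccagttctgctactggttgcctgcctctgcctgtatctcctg

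Where a gene had several windows, the window with the most matches to the marked motif was shown. The Ldha window shown held 5 matches to ACGTG in 3 places, because the palindrome CACGTG counts on each strand, and Pgk1 held 2. The other Ldha window (chr7:46846832-46847081) held 0 matches to ACGTG. Pygm held CAGCTG 168 and 8 bases before its start, and Pgam2 held it 125 bases before. The Pygm window also held 1 match to ACGTG, left in lower case. All 35 members had RefSeq windows, 53 in number, Pgm2 under the RefSeq symbol Pgm1. ACGTG, read on both strands, was in 37.7% of these windows, beside 21.1% of the windows of tested genes and 16.6% of all windows. CAGCTG, which reads alike on both strands, was in 20.8%, beside 12.7% and 13%. The palindromic glucocorticoid response element, AGAACA followed after 3 bases by its reverse complement, was in no member window and in 0.00913% of all windows. Its arm AGAACA alone, on either strand, was in 18.9%, beside 10.9% and 16.1%, and the MEF2 consensus in 3.77%, beside 1.81% and 2.92%. The Pgam2 window shown held 1 match to AGAACA and 1 to the MEF2 consensus, left in lower case. A match of letters is not a measured binding site, and some windows of the same gene overlap.

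Of 39 other genes listed for glucose and glycogen metabolism, 26 passed the count filter and 0 passed the test, with 14 log2 differences positive and 12 negative (median 0.04). Pklr, Fbp1, G6pc, Pgk2 and Ppp1r3d were at 0 counts in every library, whereas Gapdhs, the sperm isoform of Gapdh, was detected at 0.508 to 0.651 CPM. The most abundant was Pgm5, a phosphoglucomutase relative of cell junctions, at 216, 190.3 and 175 CPM against 219.8, 229 and 238 CPM. It was lower without overlap (log2 difference -0.24 ± 0.09, adjusted p = 0.398). Phka2, the liver isoform of the subunit that Phka1 encodes, was chosen after its values were seen. It was higher without overlap, like Phka1, at 59.5, 52.2 and 61.3 CPM against 28.9, 38.5 and 47.9 CPM (0.59 ± 0.17, adjusted p = 0.364).

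Hypoxia-inducible genes outside glycolysis had mostly negative log2 differences. Of 18 listed and tested, 0 passed, 4 log2 differences were positive and 14 negative, with a median of -0.09. P4ha1, a collagen prolyl hydroxylase, gave 235, 262 and 303 CPM against 304, 269 and 239 CPM, and Vegfa, a vascular growth factor, 145, 137 and 123 CPM against 139, 105 and 193 CPM. Neither gene separated the labels. Pdk1, whose kinase restrains pyruvate use in mitochondria, was picked with its values known. It was at 38.3, 33.7 and 42.3 CPM against 58.3, 49.4 and 36.7 CPM. Its highest values were those of vehicle 1 and vehicle 2, the libraries in which 14 of the members were lowest. Vehicle 1 and vehicle 2 were together highest for 7 of the 18 genes (38.9%, beside 16.8% of all genes). They were together lowest for Ankrd37, Kdm3a and Car9 (16.7%, beside 18.4%).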

How the data were processed

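Poly(A) RNA libraries of C2C12 myotubes were made with a NEBNext Ultra kit, per the labels' protocols, and the authors deposited raw read counts per gene in 1 table. The build mm10 and the tools DESeq2 1.24.0, HISAT2 2.0.5 and HTSeq 0.6.1 come from the submitters' processing notes. Settings, annotation release and strand were not given in the sources used here. No sample column was left unmapped. Gene identifiers matched GENCODE M21 (GRCm38) for 98.9% of 46983 genes, which gave exon lengths, positions and transcripts for the shared 100-base words.

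Counts were tested by edgeR 4.0.16 (R 4.3.3) with TMM scaling, filterByExpr and all 6 libraries, without a replicate block, two-sided, with Benjamini-Hochberg adjustment over 14450 genes and a threshold of 0.05. The standard error is the log2 difference divided by the square root of F. limma 3.58.1 (voom) and DESeq2 1.42.0 were alternatives, beside other scalings, count filters, a replicate block and libraries left out. Isoform shares used exact permutation tests (scipy 1.17.1). The fit was tested on simulated data. Floors cover counting error only, and standard errors include the spread between libraries.

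The members and all lists were chosen with earlier results of these data known. Values in all 6 libraries were to be given for members without overlap between labels, for those ordered like Fkbp5, for enzymes of regulated steps and for isoform pairs, and of other lists for the 2 most abundant genes, of which 1 is not reported here.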

Additional observations from a re-analysis of the deposited data

How the results depend on the processing

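No member was called under any setting run except Hk1, when corticosterone 1 and vehicle 3 were left out together (log2 difference 0.43, edgeR adjusted p = 0.0463). That made 1 glycolysis gene called, and 575 genes in all. The fit sets corticosterone 2 and 3 against vehicle 1 and 2, near pairs that cannot be told apart from treatments. It keeps corticosterone 2 and vehicle 2, whose Fkbp5 levels went against their labels. Over all genes DESeq2 called 138, leaving out both libraries numbered 2 left 3, and leaving out single libraries gave 0 to 29 (29 without corticosterone 1 and 11 without vehicle 3). Leaving out pairs was added after earlier results were known. Samples with the same replicate number deviated oppositely (r = -0.15, -0.27 and -0.32 over genes). These are deviations from the mean of each label, whose libraries went against their labels in part. Such values therefore cannot show whether the numbers pair the samples. The fit with a replicate block called 0 genes and 0 members (medians 0.07 and 0.13).

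The sign turned for some members. Pfkfb3 was -0.0038 with upper-quartile scaling and -0.036 with library totals only, where Pygb was -0.020. With both libraries numbered 2 left out, Pfkm was 0.067, Pfkfb1 -0.075, Pgk1 0.027, Pgam1 0.019, Pygb -0.035 and Phkg1 -0.31. Without corticosterone 1 and vehicle 3, Hk2 was -0.12, Pfkfb3 -0.10, Tpi1 -0.021 and Gbe1 -0.037. With single libraries left out the log2 differences that turned ran from -0.17 to 0.22 (Hk2), -0.21 to 0.11 (Pfkm), -0.017 to 0.19 (Pfkfb1), -0.19 to 0.25 (Pfkfb3), -0.027 to 0.21 (Tpi1), -0.069 to 0.063 (Pgk1), -0.16 to 0.043 (Pgam1), -0.015 to 0.30 (Eno3), -0.10 to 0.044 (Pkm), -0.040 to 0.55 (Pygm), -0.027 to 0.084 (Pygb), -0.050 to 0.15 (Phkb), -0.12 to 0.62 (Phkg1) and -0.74 to 0.032 (Ppp1r3c). The difference in isoform share ran from -0.19 to 1.52 percentage points for Pfkm and -0.39 to 4.30 for Pygm. The cause was not tested. Ordered like Fkbp5 from above were 2 members with library totals only and 1 with TMM. Genes under about 1 CPM, such as Pfkfb1 and Phkg1, are limited by depth.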
